A study of Mus musculus with 8 samples.

Results

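The testis-specific serine kinases (TSSKs) are a small family of protein kinases that are made almost only in male germ cells, and TSKS is a protein that they bind and phosphorylate. The genes Tssk1, Tssk2, Tssk3, Tssk4, Tssk6 and Tsks were taken by name, as every probe set that the array annotation assigns to 1 of these genes by its symbol or current alias. This gave 6 genes with 9 probe sets, out of 45037 probe sets tested and 18194 genes with a probe set of their own. The brightest probe set of each gene, which stands for it below, was 1417989_at for Tssk1, 1449489_at for Tssk2, 1418557_s_at for Tssk3, 1432101_a_at for Tssk4, 1418956_at for Tssk6 and 1419439_at for Tsks. None of the 9 was annotated to more than 1 gene.

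RNA was measured on 8 Affymetrix arrays, 2 for each of 4 groups: round spermatids of Hr6b-/- mice (knockout), round spermatids of Hr6b+/+ mice (wild type), late spermatocytes of Hr6b-/- mice, and late spermatocytes of Hr6b+/+ mice. All donors were males of 4 to 5 weeks on an FVB background, and the knockout was present in every cell of the animal, so that both cell types lacked HR6B, a ubiquitin-conjugating enzyme needed for male fertility in mouse. Cells were released with collagenase and trypsin and separated by sedimentation and on Percoll, with a stated purity above 80%, which leaves room for other cells in each fraction. The number of mice behind each array was not given in the sources used here, so the p-values cover no more than the spread among these arrays, which may be technical.

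TSSKs belong to the group of kinases related to AMPK and are best known from the haploid phase, in which a round cell is rebuilt into a sperm cell. TSSK1 and TSSK2 act together with TSKS near the centrioles and the flagellum, and mice that lack both kinases are infertile. TSSK6 is needed in mouse for the replacement of histones by protamines in the sperm head, TSSK4 acts on the outer dense fibre protein ODF2, and loss of TSSK3 also leaves male mice infertile. Many genes that are switched on in spermatids are driven by the transcription factor CREM, which binds the cyclic AMP response element (CRE) in their promoters.

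Ube2b, which encodes HR6B, was measured first as a check of the genotypes. Its brightest probe set had signals of 951 and 1061 in knockout spermatids against 4599.5 and 4612 in wild type spermatids, and 833 and 824 in knockout spermatocytes against 2855 and 3349 in wild type spermatocytes. Here signal means the deposited log2 value put back on the linear scale. Each array had 33.2% to 35.4% of its probe sets at a signal of 100 or above, the level below which the study's methods set genes aside as too low. Over 16 marker genes of meiotic cells, the summed signal was 38763 to 44979 on the 4 spermatid arrays and 59671 to 65199 on the 4 spermatocyte arrays. Over 13 round spermatid genes it was 105122 to 113277 on the spermatid arrays and 45949.8 to 50939 on the spermatocyte arrays, so the marker lists separated the cell types in the labelled direction, while both lists had signal in both cell types. The round spermatid sum includes genes used in both cell types, so it does not measure how far the fractions were mixed. In wild type spermatocytes Ldhc was at 95.3% and Acr at 48.4% of the wild type spermatid signal, against 1.61% for Acrv1 and 2.38% for Sun5.

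Tssk1 and Tssk2 are neighbours on chromosome 16, with 0 annotated genes between them. Tssk3 lies on chromosome 4, Tssk4 on chromosome 14, Tssk6 on chromosome 8 and Tsks on chromosome 7, so none of the genes is on a sex chromosome. Start sites and sequences were taken from RefSeq on build GRCm38.p6, in which all 6 genes were found. The 100 bases before the start are printed for the 3 genes whose listed start is also the outer end of the gene. They are shown because the members rose together between meiosis and the haploid phase, with matches to the searched letters in capitals, 5' to 3' on the plus strand.

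Tssk1, chr16:17894103-17894202: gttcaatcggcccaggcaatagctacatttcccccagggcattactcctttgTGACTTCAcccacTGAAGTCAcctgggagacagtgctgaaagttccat
Tssk2, chr16:17898537-17898636: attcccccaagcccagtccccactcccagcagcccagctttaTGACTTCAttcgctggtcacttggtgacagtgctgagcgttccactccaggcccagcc
Tssk6, chr8:69902084-69902183: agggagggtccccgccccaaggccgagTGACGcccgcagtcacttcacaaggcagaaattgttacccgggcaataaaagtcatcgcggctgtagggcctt

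The full CRE, TGACGTCA, was in 0 of the 6 windows, and in 1.15% of 32851 windows of the same length before RefSeq genes. Its shorter form TGACG, which is part of the full CRE, was in the Tssk6 window, starting at base -73, and in 10.5% of all windows. The letters TGACTTCA, which differ from the full CRE by 1 base, were in the Tssk1 window once on each strand and in the Tssk2 window once, at base -58, and in 0.594% of all windows. That motif was chosen after the sequences had been seen, so its presence is a description only. The Tssk1 and Tssk2 windows also shared the run gacagtgctga, 11 bases long, which starts at base -20 in Tssk1 and at base -33 in Tssk2. A TATA box, TATAAA, was in 0 of the 6 windows and in 5.56% of all, and a CCAAT box, CCAAT, was in the Tssk3 window only and in 18.9% of all. Both strands were searched, and a match shows letters, not a bound site.

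All 6 genes were expressed in spermatids and low in spermatocytes, in both genotypes. Tssk1 had signals of 9578 and 9160.1 in knockout spermatids, 7854 and 7441 in wild type spermatids, 517 and 456 in knockout spermatocytes, and 367 and 240.5 in wild type spermatocytes. Tssk2, its neighbour and partner in the complex with TSKS, had 10574 and 10780.1 in knockout spermatids, 8451 and 8800.2 in wild type spermatids, 514 and 427 in knockout spermatocytes, and 218 and 127 in wild type spermatocytes. For both kinases the 4 groups followed each other in that order with no overlap between any of them. With 2 arrays against 2, a separation of the genotypes cannot give an exact permutation p under 0.333. The share of all probe sets that separate in this way was not counted, so the order is a description only, here and for the genes below.

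Tssk3 had signals of 6083 and 6299.6 in knockout spermatids, 3782 and 3837 in wild type spermatids, 309 and 236 in knockout spermatocytes, and 104 and 53.3 in wild type spermatocytes. Tssk6, the kinase tied to the histone exchange, had 6577 and 6916 in knockout spermatids, 2525 and 2814 in wild type spermatids, 411 and 262 in knockout spermatocytes, and 93.2 and 91.5 in wild type spermatocytes. These genes kept the same order of groups without overlap, and Tssk6 stayed under 100 on both wild type spermatocyte arrays.

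Tssk4, on its brightest probe set, departed from that order. It had signals of 5026 and 4726 in knockout spermatids, 5801 and 6711 in wild type spermatids, 175 and 135 in knockout spermatocytes, and 149.8 and 73.1 in wild type spermatocytes. Wild type spermatids were thus highest, and the spermatocyte groups overlapped. Tsks had 1878 and 1867 in knockout spermatids, 1177 and 1429 in wild type spermatids, 131.6 and 141 in knockout spermatocytes, and 132.1 and 121 in wild type spermatocytes, so its spermatocyte groups overlapped too.

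The 3 remaining probe sets were dim. Those of Tssk3 (1432397_at) and Tssk4 (1443810_at) stayed under 100 on all 8 arrays, with signals of 27.7 to 54.4 and 11.6 to 15.5. The second Tssk4 probe set (1438486_at) had 108 and 107 in knockout spermatids, 170.0 and 199 in wild type spermatids, 24.3 and 22.5 in knockout spermatocytes, and 26.5 and 18.9 in wild type spermatocytes. It followed the order of the brighter Tssk4 probe set in spermatids. Of the 9 probe sets, 7 had a signal of 100 or more on at least 4 arrays, which included the brightest probe set of every gene. Levels are not set against each other between genes, since probes differ in how well they bind.

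**Figure D1:**
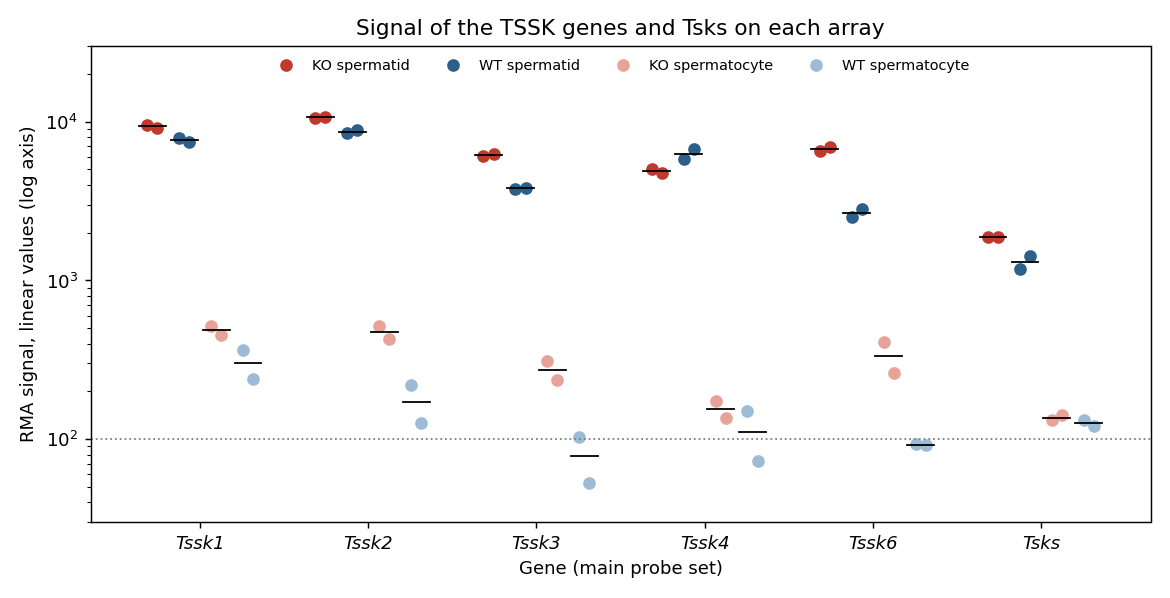
Signal (RMA value on the linear scale, log axis) of the brightest probe set of each gene on the 8 arrays. Each point is 1 array, short black lines are group means (n = 2) and the dotted line marks a signal of 100; the spermatid points of every gene lie above its spermatocyte points, and Tssk4 alone has its wild type spermatids above its knockout spermatids.

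The comparison of spermatids with spermatocytes gives the change of each gene across the meiotic divisions. In the knockout, all 6 genes were higher in spermatids, where 34.2% of all probe sets were called higher and 28.7% lower, at an adjusted p under 0.05 from limma with Benjamini-Hochberg adjustment over all probe sets. The log2 fold changes were 4.99 for Tssk4, 4.52 for Tssk3, 4.51 for Tssk2, 4.36 for Tssk6, 4.27 for Tssk1 and 3.78 for Tsks, with adjusted p-values between 5.26e-09 and 1.09e-07. The median over the 6 genes was 4.44, and over all probe sets it was 0.14.

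In wild type all 6 genes were again higher in spermatids, where 26.0% of all probe sets were called higher and 27.3% lower. Tssk4 had the highest log2 fold change, 5.90 (standard error 0.27, adjusted p = 2.8e-08), with mean signals of 6256 ± 643 in spermatids and 111 ± 54.3 in spermatocytes (means ± SD of 2 arrays here and below). This is a 59.6-fold difference. Tssk2 and Tssk3 were 51.8-fold and 51.2-fold higher (log2 fold changes 5.70 and 5.68), Tssk6 28.9-fold (4.85) and Tssk1 25.7-fold (4.69). The substrate gene Tsks rose least, 10.3-fold, or 3.36 ± 0.13 on the log2 scale (estimate ± standard error, adjusted p = 7.52e-09), with 1303 ± 178 in wild type spermatids and 126 ± 7.95 in wild type spermatocytes. The median over the 6 genes was 5.26, and over all probe sets it was 0.096. On the brightest probe sets Tssk4 was highest and Tsks lowest in both genotypes, but this order did not hold for the mean over all probe sets of a gene, the dim ones included. On that measure Tssk4 changed by 2.47 in the knockout and 3.04 in wild type, Tssk3 by 2.45 in the knockout and 3.18 in wild type, both below Tsks. Of the dim probe sets, the second one of Tssk4 was called in both genotypes (2.20 in the knockout and 3.04 in wild type), the second one of Tssk3 in wild type at 0.68 (adjusted p = 0.00388), and the third one of Tssk4 in neither.

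**Figure D2:**
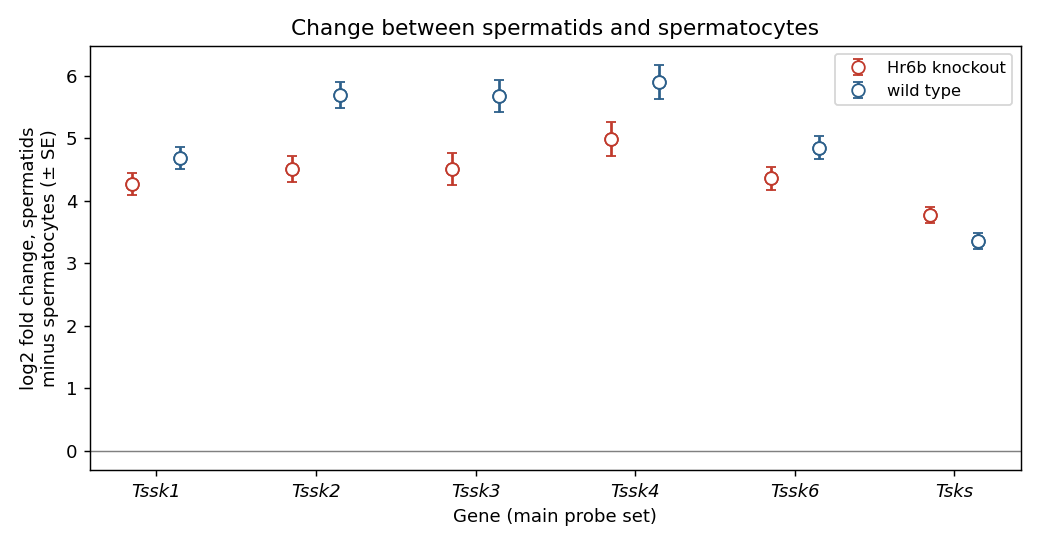
Log2 fold change of spermatids over spermatocytes for the brightest probe set of each gene, in the knockout (left of each pair) and in wild type (right). Points are limma estimates and bars are 1 standard error; the 5 kinase genes have lower values in the knockout than in wild type and Tsks has 3.78 in the knockout against 3.36 in wild type.

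To ask whether the members rose by different amounts, the log2 ratio of 2 genes was taken on each array and the 4 spermatid arrays were set against the 4 spermatocyte arrays, in a two-sided exact permutation test over all 15 pairs. The smallest p that this design allows is 0.0286. None of the 15 pairs passed after Benjamini-Hochberg adjustment, where the lowest adjusted p was 0.0714. A pair can pass here only if enough of the 15 reach the smallest p. The count therefore does not show whether the members rose alike. The smallest possible p, with no overlap between the cell types, was reached by 6 pairs. In 4 of these pairs the change of a kinase gene exceeded that of Tsks, by 1.87 on the log2 scale for Tssk4, 1.53 for Tssk3, 1.53 for Tssk2 and 0.91 for Tssk1. These values pool the genotypes. In the knockout they were 1.21 for Tssk4, 0.74 for Tssk3, 0.73 for Tssk2 and 0.49 for Tssk1. The wild type values were larger, at 2.54 for Tssk4, 2.32 for Tssk3, 2.34 for Tssk2 and 1.33 for Tssk1. With the mean over all probe sets of a gene, the difference from Tsks turned to -0.82 for Tssk4 and -0.76 for Tssk3, while Tssk1 and Tssk2 have 1 probe set each and kept theirs. The other 2 pairs were Tssk1 against Tssk4 (-0.96) and Tssk1 against its neighbour Tssk2 (-0.63). The Tssk1 to Tssk2 ratio moved by -0.24 between the cell types in the knockout and by -1.01 in wild type.

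In knockout spermatocytes, 3 of the 6 genes were higher than in wild type and 0 were lower, where 1.18% of all probe sets were called higher and 0.413% lower. Tssk3 averaged 273 ± 51.7 in knockout spermatocytes and 78.6 ± 35.8 in wild type spermatocytes, which is 1.86 ± 0.26 as a log2 fold change with its standard error (limma, adjusted p = 0.00687). The dim second probe set of Tssk3 was at 0.21 and was not called (limma, adjusted p = 0.731). Tssk6 averaged 336 ± 105 in knockout spermatocytes and 92.4 ± 1.19 in wild type ones, a log2 fold change of 1.83 ± 0.18 (adjusted p = 0.00205). For Tssk2 the means were 470 ± 61.2 in the knockout and 173 ± 64.7 in wild type, a log2 fold change of 1.49 ± 0.21 (adjusted p = 0.00834). These are differences of 3.63-fold, 3.55-fold and 2.82-fold between low levels, since the knockout spermatocyte signal of the 3 genes was between 4.40% and 4.98% of that in knockout spermatids.

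The other 3 genes did not pass in spermatocytes. Tssk1 had a log2 fold change of 0.71 (adjusted p = 0.107 from limma), Tssk4 had 0.55 (adjusted p = 0.515) and Tsks had 0.11 (adjusted p = 0.856). The median over the 6 genes was 1.10, against -0.0083 over all probe sets. The calls of Tssk2 and Tssk3 depended on single arrays: without replicate 1 of the knockout spermatocytes only Tssk6 was called (adjusted p of Tssk2 0.113 and of Tssk3 0.0941), and without replicate 1 of the wild type spermatocytes 5 genes were called, Tssk1 (1.01) and Tssk4 (1.07) among them. Without replicate 2 of the wild type spermatocytes the same 3 genes were called, and Tssk1 was at 0.40 and Tssk4 at 0.036.

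Other spermatid transcripts moved with the kinases in this comparison, and their part in the result was not tested. Of 20 genes of late spermiogenesis, 17 were higher in knockout spermatocytes and 0 were lower, with a median log2 fold change of 1.77. Their summed signal was 46334 and 34839 in knockout spermatocytes against 15964 and 11383 in wild type spermatocytes. Of 13 round spermatid genes 0 were called by limma, with a median of 0.34 and 6 of them at an unadjusted p under 0.05 (11.0% of all probe sets). Their sum, which includes genes with much signal in both cell types, was 50939 and 49152 in knockout spermatocytes against 49068 and 45949.8 in wild type spermatocytes. Markers of spermatogonia lay the other way, with 1 of 11 called lower, 0 higher and a median of -0.28. Of these 11 genes 5 had an unadjusted p under 0.05, and their sum was 4472 and 5242 in knockout spermatocytes against 4951 and 7151 in wild type spermatocytes. In RNA from a cell fraction, a few cells of another type and a low level in every cell cannot be told apart.

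The excess of knockout over wild type spermatocytes was therefore also expressed as a share of the level in knockout spermatids. It was 3.62% for Tssk6, 3.13% for Tssk3, 2.79% for Tssk2, 1.95% for Tssk1, 0.890% for Tssk4 and 0.535% for Tsks, a median of 2.37%. Over the 20 late spermiogenesis genes it ran from 0.258% for Car2, a carbonic anhydrase gene, to 20.4% for Prm1, which encodes a protamine, with a median of 5.10%. Over the 13 round spermatid genes it ran from -3.28% for Acr, which encodes the acrosomal protease acrosin, to 10.7% for Zpbp, another acrosomal gene, with a median of 1.52%. The shares of the members differed among themselves and lay inside the ranges of both lists. The ends of the round spermatid range are from genes with much signal in both cell types. In knockout spermatocytes Acr was at 60.3% and Zpbp at 49.0% of the knockout spermatid signal. Round spermatid genes at 6.76% or less on that measure had an excess of -3.03% (Klk1b8) to 1.56% (Spaca3), below Tssk1, Tssk2, Tssk3 and Tssk6. Pgk2, at 14.0%, had an excess of 2.48%. The cut at 6.76% was set after the values were seen. Late spermiogenesis genes under the same cut had an excess of 2.22% (Spem1) to 4.79% (Cabs1), a range that holds Tssk2, Tssk3 and Tssk6. What these shares come from was not tested.

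In knockout spermatids, 2 of the 6 genes were higher than in wild type and 0 were lower, where 4.83% of all probe sets were called higher and 9.63% lower. Tssk6 averaged 6747 ± 239 in knockout spermatids and 2670 ± 205 in wild type spermatids, which is 2.53-fold, or 1.34 ± 0.18 on the log2 scale (limma, adjusted p = 0.00166). Tsks averaged 1872 ± 7.71 in the knockout and 1303 ± 178 in wild type, which is 1.44-fold, or 0.53 ± 0.13 on the log2 scale (adjusted p = 0.0218). Tssk6 was the only member called in both cell types.

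The other 4 kinase genes were not called in spermatids on their brightest probe sets. Their log2 fold changes, each with its standard error, were 0.70 ± 0.26 for Tssk3 (limma, adjusted p = 0.103), 0.31 ± 0.21 for Tssk2 (adjusted p = 0.396), 0.29 ± 0.18 for Tssk1 (adjusted p = 0.328) and -0.36 ± 0.27 for Tssk4 (adjusted p = 0.448). The second probe set of Tssk4 was called lower, at -0.77 ± 0.16 (adjusted p = 0.0120). It had the same sign as the brightest Tssk4 probe set and differed from it in the call. The third and dimmest Tssk4 probe set had the other sign, at 0.11 ± 0.12, and was not called (limma, adjusted p = 0.608). The dim second probe set of Tssk3 was at -0.10 and was not called (limma, adjusted p = 0.737). The median over the 6 genes was 0.42, against 0.021 over all probe sets and -0.16 over those with a mean signal of 100 or more.

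The call of Tsks was lost without any 1 of 3 spermatid arrays: its adjusted p was 0.101 without replicate 1 of the knockout, 0.0769 without replicate 2 of the knockout and 0.145 without replicate 1 of wild type, while Tssk3 was called without either wild type spermatocyte array (adjusted p = 0.0101). Tssk6 was called in every alternative fit of both genotype comparisons that kept 2 arrays in each group compared. With the 4 spermatocyte arrays fitted alone it only just passed (limma, adjusted p = 0.0489). Markers of Sertoli cells, the somatic cells that surround the germ cells, moved with this comparison: 4 of 14 were higher and 0 lower, their summed signal was 1431 and 1437 in knockout spermatids against 906 and 1009 in wild type spermatids, and 5 and 6 of them reached a signal of 100 in the knockout against 3 and 3 in wild type. In spermatocytes the same sums were 5498 and 7234 in the knockout against 5712 and 7264 in wild type, and 0 of the 14 were called by limma, 1 at an unadjusted p under 0.05. Markers of spermatogonia (2 of 11) and of peritubular, endothelial and blood cells (2 of 10) were also higher in knockout spermatids, and 0 were lower. Of the late spermiogenesis genes 7 of 20 were higher in knockout spermatids and 0 lower, with summed signals of 294469 and 298418 in the knockout against 219813 and 224924 in wild type. The part of these lists in the results for Tssk6 and Tsks was not tested.

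**Figure D3:**
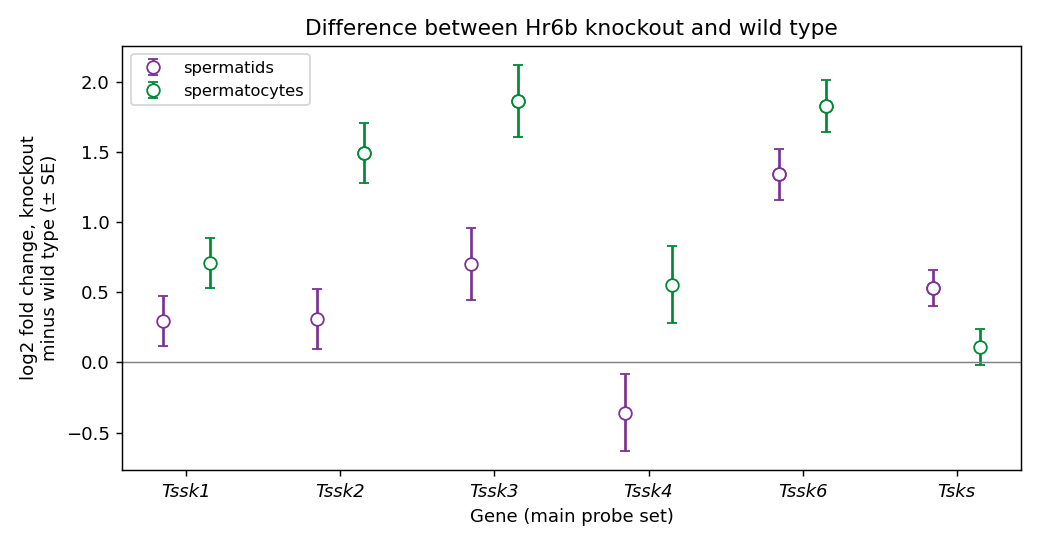
Log2 fold change of knockout over wild type for the brightest probe set of each gene, in spermatids (left of each pair) and in spermatocytes (right). Points are limma estimates and bars are 1 standard error; Tssk6 is at 1.34 and 1.83, Tsks is the only gene with a higher value in spermatids (0.53) than in spermatocytes (0.11), and Tssk4 is below 0 in spermatids.

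Whether the knockout effect differed between the cell types was tested as an interaction, and 0 of the 6 genes were called, where 1.46% of all probe sets were called higher and 3.14% lower. At an unadjusted p under 0.05 there were 4 of 6 genes, against 22.1% of all probe sets. The effect in spermatids minus that in spermatocytes was -1.19 on the log2 scale for Tssk2 (standard error 0.30, adjusted p = 0.0556 from limma), -1.16 for Tssk3 (standard error 0.36, adjusted p = 0.0983) and -0.91 for Tssk4 (adjusted p = 0.203). It was -0.49 for Tssk6, -0.42 for Tssk1 and 0.42 for Tsks, with adjusted p-values of 0.307, 0.375 and 0.208. The difference for Tssk2 lay close to the threshold and passed it in 4 of the alternative fits, which are given with the other alternatives.

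Ratios between members do not depend on a shift of the whole array, and in spermatids the genotypes differed most in the ratio of Tssk4 to Tssk6. This log2 ratio was -0.55 to -0.39 in knockout spermatids and 1.20 to 1.25 in wild type spermatids, a difference of -1.70, and the difference in spermatocytes was -1.27. The ratio of Tssk6 to Tsks was higher in the knockout by 0.81 in spermatids and by 1.72 in spermatocytes. By contrast, the ratio of the neighbours Tssk1 and Tssk2 differed by -0.015 in spermatids and by -0.79 in spermatocytes. These genotype differences are values with no test: a permutation of 2 arrays against 2 cannot give an exact p under 0.333, and no other test of the ratios was run.

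The members were also compared by the shape of their pattern, as the Euclidean distance between log2 values over the 8 arrays after each probe set had been centred on its mean. The nearest members were Tssk2 and Tssk3, at a distance of 0.56, and the farthest were Tssk4 and Tsks, at 2.92. The neighbours Tssk1 and Tssk2 were 1.20 apart. Among all other named genes, those nearest to Tssk2 were Nt5c1b (0.21), which encodes a nucleotidase, Dnajc5b (0.21), and Armc12 (0.23), and those nearest to Tssk1 were Tescl, Clip4 and 1700019N19Rik, each at 0.25.

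Tssk6 had 1 close gene, 1700012A03Rik, at 0.19, followed by Glul, which encodes glutamine synthetase, at 0.35. For Tssk3 the nearest were H2ap (0.24), 1700034E13Rik (0.30) and Asb17 (0.30), for Tssk4 they were Apobec4 (0.38), Sgms2 (0.39) and Ccdc81 (0.41), and for Tsks they were Spaca9 (0.30), Ush1c (0.33) and Stpg3 (0.35). The likeness is a description over 8 arrays that share their 4 groups.

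Genes of proteins known to work with the TSSKs moved in both directions between the cell types. Of 11 listed partners, 10 had a probe set of their own, and in knockout spermatocytes 0 of the 10 were called higher or lower than in wild type, with a median log2 fold change of 0.058 and 3 of 10 at an unadjusted limma p under 0.05 (11.0% of all probe sets). In wild type 4 of the 10 were higher in spermatids than in spermatocytes and 4 were lower, beside 26.0% and 27.3% of all probe sets. Pdpk1, whose kinase activates TSSK3, had the highest of these changes, with signals of 4607 ± 371 in knockout spermatids, 3282 ± 47.4 in wild type spermatids, 276 ± 45.5 in knockout spermatocytes and 206 ± 54.1 in wild type spermatocytes. Spermatids exceeded spermatocytes by 4.07 on the log2 scale in the knockout and by 4.02 in wild type.

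Odf2, whose product is bound and phosphorylated by TSSK4, was higher in spermatids by 1.30 in the knockout and by 1.17 in wild type. Tsacc, which encodes a co-chaperone that activates TSSK6, was higher by 0.74 in the knockout and by 0.64 in wild type. Tssk5, a further family gene, was called higher at 0.73 in wild type but stayed under a mean signal of 100 in every group. The genes lower in wild type spermatids were Hspa8 (-2.20) and Hsp90aa1 (-0.47), which encode chaperones, H2ax (-1.92), whose histone is phosphorylated in a TSSK6-dependent way, and Creb1 (-1.59), which encodes a transcription factor.

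Ppp1cc, whose phosphatase is found in a complex with TSSK1 and TSKS, averaged 20720 ± 191 in knockout spermatids and 21946 ± 597 in wild type spermatids, and was called in no comparison. In knockout spermatids Creb1 (-0.50, adjusted p = 0.0166) and Spag16 (-0.53, adjusted p = 0.0154), an axonemal gene, were called lower and 0 partners higher. With cyclic loess or with equal medians of expressed probe sets, 3 partners were instead called higher and 0 lower, so the direction of the partner calls in spermatids depends on the scaling, while quantile normalization gave 0 higher and 2 lower.

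Among 18 kinases related to AMPK, the wider group to which TSSKs belong, 0 were called in knockout spermatocytes, 2 at an unadjusted limma p under 0.05. In knockout spermatids 1 was higher, Mark2 (0.46), and 3 were lower, led by Brsk2 with 173 ± 6.10 in knockout and 336 ± 14.5 in wild type spermatids (-0.96, limma adjusted p = 0.0016). These counts stand beside 4.83% higher and 9.63% lower over all probe sets, and with equal medians of expressed probe sets 4 of the 18 were higher and 1 lower. Among 14 measured kinases with a role in germ cells, Cdk16, which encodes a kinase needed for sperm formation in mouse, was the only one called in knockout spermatocytes, at 0.84 (adjusted p = 0.00763). In spermatids it averaged 3113 ± 50.0 in the knockout and 1592 ± 9.40 in wild type (0.97, adjusted p = 0.000987). It was the only one of the 14 called higher there, while 8 were lower, led by Stk36 at -0.94, and with equal medians 2 were higher and 3 lower.

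**Figure D4:**
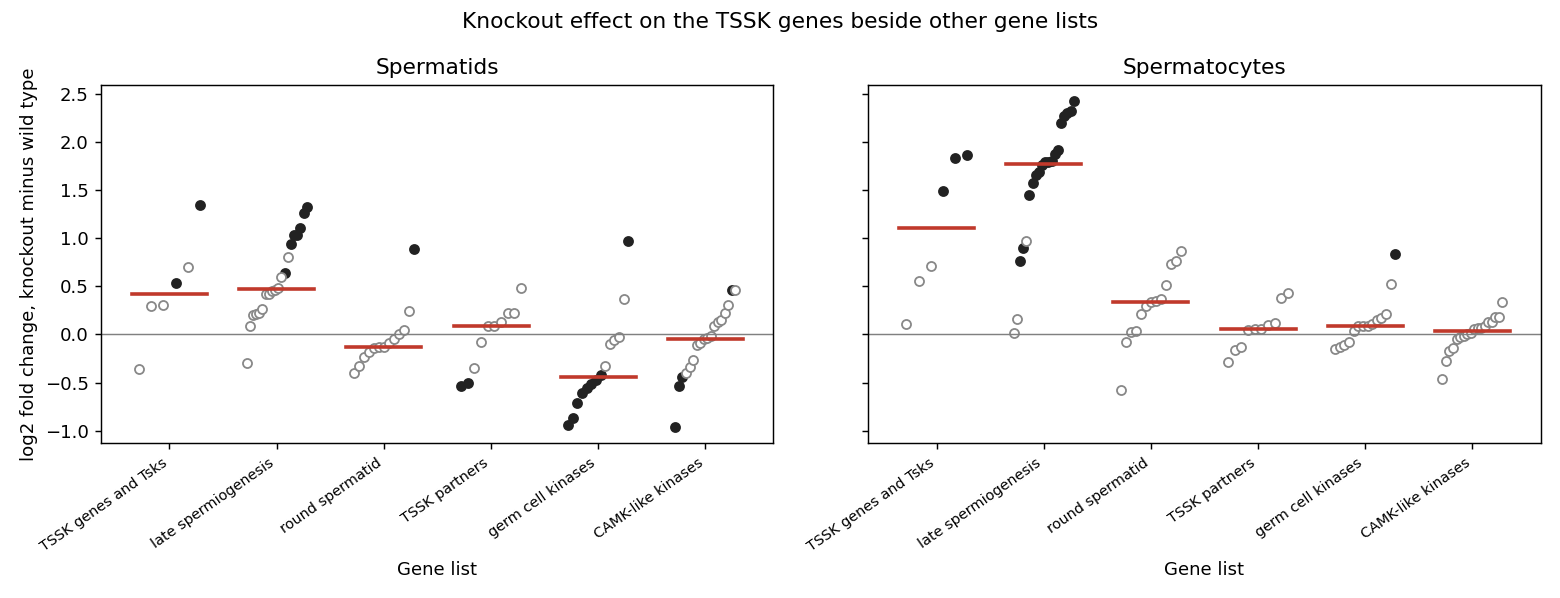
Log2 fold change of knockout over wild type for the brightest probe set of each gene in the TSSK list and 5 other lists, in spermatids (left panel) and spermatocytes (right panel). Each circle is a gene, filled where the adjusted p from limma was under 0.05, red lines are list medians and the CAMK-like kinases are the 18 related to AMPK; in spermatocytes the median is 1.10 for the TSSK genes and Tsks, 1.77 for late spermiogenesis and 0.34 or lower for the other 4 lists.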

How the data were processed

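Total RNA of each cell fraction was labelled and hybridised to Affymetrix arrays of the mouse genome. The authors background-corrected, normalized and summarized the probes with RMA, and the deposited values are log2 signals for 8 arrays, used here as given. The genome build behind the probe annotation is not given in the sources used here, so no probe coordinates are printed.

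A model with a mean for each of the 4 groups was fitted to all arrays with limma (version 3.58.1, R 4.3.3), whose spread had 4 residual and 5.85 prior degrees of freedom. P-values were adjusted after Benjamini and Hochberg over 45037 probe sets, without the 64 controls, and a probe set was called at an adjusted p under 0.05. Where a gene had several probe sets of its own, the one with the highest mean log2 value stood for it. The named genes were all members with all their probe sets, the 3 genes nearest in pattern to each, all TSSK partners, and of the other lists called genes with the largest rise or fall, such as Tnp2. The Prm1, Car2, Acr and Zpbp values are the ends of their lists' ranges. Ldhc, Acrv1, Sun5, Klk1b8, Spaca3, Pgk2, Spem1 and Cabs1 are named for their share in spermatocytes, chosen after the values were seen. Pairs of members were compared by exact permutation tests (scipy 1.17.1). Both tests were run on simulated data first. Alternatives were other normalizations, scalings, filters and thresholds, a variance trend, the arrays of 1 comparison alone, a replicate block and leaving out each array. The members and gene lists were chosen with earlier results of these data known. The number of arrays limits the precision. Promoter letters came from RefSeq (GRCm38.p6).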

Additional observations from a re-analysis of the deposited data

Results flagged for a closer look

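For 5 named genes that are not members, the knockout effect differed between the cell types in the test of that difference itself, with limma and an adjusted p under 0.05, and only Prm1 kept that call under all 3 other scalings. Spermatids minus spermatocytes, on the log2 scale, the difference was -0.89 for Creb1 (adjusted p = 0.0194), whose effect was -0.50 in spermatids and 0.38 in spermatocytes. The effect in spermatocytes was not called (limma, adjusted p = 0.178). Creb1 averaged 99.8 in knockout and 141 in wild type spermatids, near the level of 100, and only the brightest of its 6 probe sets was used. The difference was -0.78 for Stk36 (adjusted p = 0.0346), with -0.94 in spermatids and -0.15 in spermatocytes. Stk36 was not called under cyclic loess, quantile normalization or equal medians (adjusted p = 0.123, 0.0893 and 0.0654), and Creb1 was not called under cyclic loess (adjusted p = 0.0568). Prm1 and Tnp2, which encode proteins that package sperm chromatin, had differences of -1.72 (adjusted p = 0.0140) and -1.97 (adjusted p = 0.0274), and Tnp2 was not called under cyclic loess (adjusted p = 0.0519). They were among 8 of the 20 late spermiogenesis genes called lower in this test, beside 3.14% of all probe sets, and cyclic loess gave 4 of the 20. Of the spermatogonia markers 3 of 11 and of the Sertoli cell markers 2 of 14 were called higher, beside 1.46% of all probe sets. Tnp2 averaged 24654 ± 2098 in knockout spermatids and 17962 ± 320 in wild type spermatids, and 2948 ± 992 in knockout spermatocytes and 560.0 ± 236 in wild type spermatocytes (SD, n = 2 arrays each). Prm1 had a knockout effect of 0.20 in spermatids and 1.91 in spermatocytes. Its mean signals were 32758 in knockout and 28559 in wild type spermatids, against 9139 in knockout and 2445 in wild type spermatocytes. Whether the array still separates levels at such high spermatid signals was not tested. Nt5c1b, the gene nearest to Tssk2 in pattern, had a difference of -1.35 (adjusted p = 0.0485), with 0.12 in spermatids and 1.47 in spermatocytes, next to -1.19 for Tssk2, which had an adjusted p of 0.0556. Nt5c1b was picked for its likeness to Tssk2 on these same arrays, so its value is no separate evidence about Tssk2. The call of Nt5c1b was lost under cyclic loess, quantile normalization and equal medians (adjusted p = 0.118, 0.0672 and 0.0689).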

How the results depend on the processing

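Of 516 values of single members under alternatives, 493 kept their direction and side of the threshold, 15 passed it anew, 8 no longer passed, and none changed sign. In 272 of them the fold is the same by construction, as with another spread, threshold or filter or with an array of another group left out, so direction was open in 244 only. All 6 genes were called between the cell types, in both genotypes, under every alternative run. In spermatocytes 3 genes were called, against 1 with the 4 spermatocyte arrays fitted alone (adjusted p of Tssk2 0.0948 and of Tssk3 0.0912) and 1 to 5 with 1 array left out. A variance trend added Tssk1 (adjusted p = 0.0298). In spermatids 2 were called, against 1 at an adjusted p under 0.01, 1 to 3 with 1 array left out, and 3 with cyclic loess, equal medians or the 4 spermatid arrays alone, which added Tssk3 (0.95, 0.91 and 0.70). For the interaction 0 were called, against 2 with a variance trend (adjusted p of Tssk2 0.0194 and of Tssk3 0.0486), 1 with a filter for a signal of 100 or more on at least 4 arrays (Tssk2, 0.0444), and 0 to 3 with 1 array left out, where the 3 (Tssk2, Tssk3 and Tssk4) came without replicate 1 of the wild type spermatocytes. Among the 15 pairs 0 were called, against 9 with the mean of all probe sets of a gene in place of the brightest, where 8 of the 15 differences, all with Tssk3 or Tssk4, changed sign. Both counts turn on how many pairs reached the smallest possible p, not on the size of each difference. With any array left out 0 were called, where 4 against 3 cannot give a p under 0.0571. Tssk3 and Tssk4 alone have more than 1 probe set, so only differences with them could change under the mean of all probe sets, which takes in the dim ones. The cause of the changes under the other alternatives was not tested.

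The deviations of same-numbered arrays correlated at -0.13 to 0.14, so the replicate numbers showed no pairing. With 2 arrays a group this does not settle whether samples were prepared together. With the replicate number as a block, 3 genes were called in spermatocytes, 2 in spermatids, 6 between the cell types in each genotype and 1 for the interaction (Tssk2, adjusted p = 0.0486). A block with the numbers of the wild type spermatids crossed, chosen after the data were seen, gave 2 in spermatids. Over all probe sets, 6514 were called in spermatids, 33.4% of them higher, against 4954 and 50.0% with cyclic loess, 5784 and 46.1% with quantile normalization, and 11036 and 79.4% with equal medians. The median of probe sets with a mean signal of 100 or more was lower in knockout than in wild type spermatids by a log2 difference of -0.21 and higher by 0.021 in spermatocytes. Signals under 100, as for Tssk6 on both wild type spermatocyte arrays and for Tssk3 and Tssk4 on replicate 2, are near the background and limit those fold changes.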
